A study of Mus musculus with 9 samples.

Results

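The HMGN and HMGB genes encode small chromatin proteins of the high mobility group, and 7 of them were examined here: Hmgn1, Hmgn2, Hmgn3, Hmgn5, Hmgb1, Hmgb2 and Hmgb3. They were taken by gene symbol, with earlier results of these data known. They are 7 of the 26602 genes that had a count in the midbrain RNA-seq libraries. HMGN proteins bind directly to nucleosomes through a conserved core, compete there with linker histone H1 and loosen the packing of chromatin. HMGB proteins bend DNA with their HMG boxes and carry a tail of acidic residues. HMGB1 is also released by damaged or activated cells and acts outside the cell as a danger signal through RAGE and Toll-like receptors.
Midbrain tissue that contained the substantia nigra pars compacta (SNpc) was collected from 4 DJ-1+/+ (wild-type, WT) and 5 DJ-1-/- mice at 3 to 4 months of age, with 1 library per mouse. DJ-1 is the product of Park7. The DJ-1-/- mice carried a targeted allele in every cell, on a background crossed for 7 generations to C57BL/6, and were bred from heterozygous parents and housed together with DJ-1+/+ mice. The labels name no treatment for mice of either genotype. Total RNA was read with a 3′ mRNA-seq kit (QuantSeq), which sequences a fragment near the polyadenylated end of each transcript whatever its length, and copies were counted by unique molecular identifier (UMI).
Values are given below as UMI counts and as counts per 1000000 of the library total (cpm). Totals were 841974 to 886085 counts in the DJ-1+/+ and 967751 to 1098125 counts in the DJ-1-/- libraries, and 3 counts, used as a floor for detection that covers counting error only, stood for 2.73 to 3.56 cpm. Park7 averaged 20.4 ± 4.54 cpm (SD, n = 5) in the mutant group, against 135 ± 15.7 cpm (SD, n = 4) in the wild-type group, and was lower in every DJ-1-/- library than in any DJ-1+/+ library. All 4 dopaminergic neuron markers looked for were detected, with sums of 208 to 511 cpm in DJ-1+/+ libraries, against 387 to 542 cpm in DJ-1-/- libraries. Choroid plexus markers (4 of 4 genes detected) summed to 528 cpm in DJ-1+/+ replicate 4 and 255 cpm in DJ-1+/+ replicate 1, against 35.1 to 161 cpm in the other libraries. Cerebellar markers (6 of 6 detected) summed to 890 cpm in DJ-1+/+ replicate 1 and 212 to 402 cpm elsewhere. By edgeR's test, described below, 2 of 4 dopaminergic markers (Th and Slc6a3) were higher in DJ-1-/- mice at an unadjusted p under 0.05. At this threshold 4 of 4 choroid plexus and 3 of 6 cerebellar markers were lower, against 2.83% of all genes in either direction. None of these passed adjustment. The parts of these tissues in the results below were not tested, and the genotype comparison was repeated without DJ-1+/+ replicates 1 and 4. In whole tissue, fewer cells of a type and less RNA per cell cannot be told apart.
The HMGN genes are recognised by a short stretch of codons for the nucleosome-binding core, and this stretch is printed here because it shows what the 4 HMGN members have in common. The sequences are 84 coding bases of the GENCODE M21 transcripts (GRCm38), read 5′ to 3′ on the sense strand, with the 8 codons of the core that encode the same residues in all 4 in capitals.
Hmgn1: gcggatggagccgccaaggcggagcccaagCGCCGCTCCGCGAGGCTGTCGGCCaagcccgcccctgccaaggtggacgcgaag
Hmgn2: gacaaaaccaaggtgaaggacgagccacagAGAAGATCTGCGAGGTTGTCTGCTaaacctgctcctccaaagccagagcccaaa
Hmgn3: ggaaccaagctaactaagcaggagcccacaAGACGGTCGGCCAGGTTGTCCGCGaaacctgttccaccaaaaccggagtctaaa
Hmgn5: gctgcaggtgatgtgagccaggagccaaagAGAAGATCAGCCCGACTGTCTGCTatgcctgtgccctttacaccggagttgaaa
The 24 bases in capitals differed between any pair of the 4 genes at 5 to 10 positions, the fewest between Hmgn2 and Hmgn5 and the most between Hmgn1 and Hmgn5. Here and below, each gene is represented by its annotated transcript with the longest complete coding sequence. In these transcripts the members also differed in length. The coding sequence of Hmgn1 held 96 codons, that of Hmgn2 109, that of Hmgn3 128 and that of Hmgn5 406. Other transcripts of a gene can be shorter, so this order is that of the transcripts chosen.
The HMGB members are printed by the end of their coding sequence, since the acidic tail is where the 3 differ most plainly in length. Capitals mark the longest run of codons for aspartate and glutamate.
Hmgb1: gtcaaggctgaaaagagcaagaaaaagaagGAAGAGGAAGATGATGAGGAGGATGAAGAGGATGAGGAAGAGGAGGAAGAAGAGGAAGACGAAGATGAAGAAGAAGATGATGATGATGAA
Hmgb2: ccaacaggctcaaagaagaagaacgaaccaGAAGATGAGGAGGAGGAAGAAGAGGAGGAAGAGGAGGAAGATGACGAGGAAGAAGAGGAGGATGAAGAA
Hmgb3: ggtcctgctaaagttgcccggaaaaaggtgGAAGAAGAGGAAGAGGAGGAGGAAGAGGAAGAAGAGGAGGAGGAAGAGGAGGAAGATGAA
This run was 30 codons long in Hmgb1, 23 in Hmgb2 and 20 in Hmgb3, and in each gene it ended the coding sequence. The coding sequences of Hmgb1 and Hmgb2 were identical at 76.4% of aligned positions, those of Hmgb1 and Hmgb3 at 72.5% and those of Hmgb2 and Hmgb3 at 71.7%. Between Hmgn1, Hmgn2 and Hmgn3 the identity was 53.0% to 57.8%. In all these values the whole coding sequences were aligned, and gaps counted as aligned positions.
The 7 genes fell into a group of 5 with substantial counts and a pair with very few. Hmgn1 had the highest level, 137 ± 13.8 cpm (SD, n = 9) over all libraries, followed by Hmgn3 with 113 ± 10.6 cpm, Hmgb1 with 108 ± 8.65 cpm, Hmgb3 with 91.3 ± 13.4 cpm and Hmgn5 with 67.2 ± 23.0 cpm. Hmgb2 with 10.3 ± 4.23 cpm and Hmgn2 with 8.01 ± 2.87 cpm were the lowest. Hmgn2 has near-identical pseudogenes, described below, and the loss of reads that match several copies was not tested. Hmgn1 exceeded Hmgn3 in 9 of 9 libraries, by 0.28 on the log2 scale (exact permutation test by sign flips, two-sided, with p = 0.00391 as the lowest possible for 9 libraries). Hmgn3 and Hmgb1 did not differ by this test (0.067, higher in 6 of 9 libraries, exact permutation p = 0.148), and neither did Hmgb2 and Hmgn2 (0.35, higher in 5 of 9 libraries, exact permutation p = 0.156). Hmgb1 lay above Hmgb3 by 0.24 (7 of 9 libraries, exact permutation p = 0.0156), Hmgb3 above Hmgn5 by 0.50 (7 of 9 libraries, exact permutation p = 0.0352) and Hmgn5 above Hmgb2 by 2.66 (9 of 9 libraries, exact permutation p = 0.00391). These 6 p-values are not adjusted, and they compare neighbours in an order taken from the same libraries.
The scale of these levels was narrow at its upper end. The gene with the most counts had only 1040 to 1359 counts in a library, and Malat1 and mt-Co1, transcripts known to be abundant in brain and chosen here after their values were seen, had 3.07 and 2.97 times the counts of Hmgn1. The length of the UMI is not given in the sources used here, and the levels above are therefore levels in these counts, not ratios of molecules in the tissue. Differences, intervals and variance ratios below rest on the same counts, and the effect of this scale on them was not tested.

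**Figure D1:**
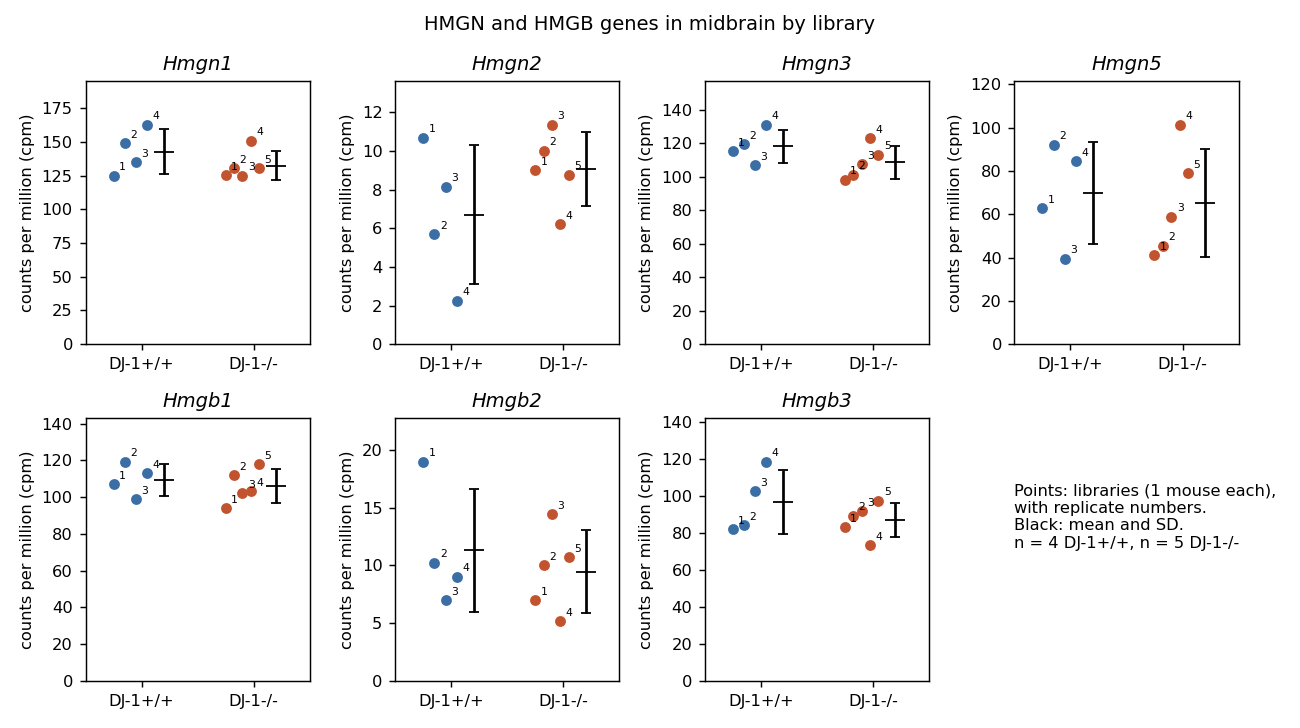
Level of each HMGN and HMGB gene in cpm (vertical axis, from 0, a separate scale per gene) in DJ-1+/+ (blue, n = 4) and DJ-1-/- libraries (red, n = 5), 1 point per mouse with its replicate number, and the mean and SD in black. The genotypes overlap for all 7 genes, and Hmgn5 spans 39.6 to 101 cpm within them.

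The main question put to these libraries was which transcripts of the midbrain differ when DJ-1 is missing. None of the 7 HMGN and HMGB genes differed between DJ-1+/+ and DJ-1-/- mice by the tests used. The test was run on the 18127 genes whose counts summed to 10 or more, and all 7 members were among them. By edgeR's quasi-likelihood test, with genotype as the only term, 513 genes (2.83%) reached an unadjusted p under 0.05, 285 of them higher (1.57%) and 228 lower (1.26%) in DJ-1-/- mice, and 0 of the 7 members did. After Benjamini-Hochberg adjustment 1 gene (0.00552%), Park7, passed, and the adjusted p from edgeR was 1 for each member. The genotypes overlapped in cpm for all 7 members, where 1.25% of all genes tested did not overlap. Exact permutation tests below are two-sided on the absolute difference in mean cpm over all ways to divide the 9 libraries into 4 and 5, which cannot give a p below 0.00794.
Of the HMGN genes, Hmgn1 (chromosome 16, 96120618 to 96127729, minus strand) had the highest counts. Its protein is a ubiquitous nucleosome binder that also takes part in DNA repair. The DJ-1+/+ libraries had 125, 149, 135 and 162 cpm of Hmgn1, and the DJ-1-/- libraries 125, 130.2, 125, 151 and 131 cpm. The highest value of each genotype was that of replicate 4, and the lowest values were alike. The group means were 143 ± 16.5 cpm (SD, n = 4) and 132 ± 10.7 cpm (SD, n = 5). On the log2 scale the DJ-1-/- mice were at −0.11 relative to DJ-1+/+ (95% interval −0.30 to 0.077, exact permutation p = 0.270). This value was −0.044 without DJ-1+/+ replicate 4 and −0.17 without DJ-1-/- replicate 4. The paper on these mice listed Hmgn1 among the genes upregulated in DJ-1-/- midbrain, chosen by a p-value under 0.05. Its log2 fold change there was among the largest increases in the supplementary list. That value lies above the whole 95% interval given here. The counts used here did not show this increase, and the reason for the difference was not tested.
Hmgn3 (chromosome 9, 83109948 to 83146685, minus strand) is the member best known from the brain, the eye and endocrine cells. It was counted at 115, 119, 107 and 131 cpm in DJ-1+/+ and at 98.1, 101, 107, 123 and 113 cpm in DJ-1-/- mice. The lowest values were those of DJ-1-/- replicates 1 and 2 and the highest that of DJ-1+/+ replicate 4. The means of 118 ± 9.94 cpm (SD, n = 4) and 108 ± 9.93 cpm (SD, n = 5) differed by about the spread within a genotype (log2 fold change −0.13, 95% interval −0.32 to 0.066, exact permutation p = 0.206). A pair of little expressed genes overlaps Hmgn3 on the opposite strand, with 0 and 20 counts over the 9 libraries.
Hmgn5 is X-linked (chromosome X, 109004534 to 109013404, minus strand) and encodes the longest of these proteins, with an extended acidic end that counteracts linker histones. Its values were 63.0, 92.1, 39.6 and 84.6 cpm in DJ-1+/+ and 41.0, 45.5, 58.8, 101 and 78.9 cpm in DJ-1-/- mice. High and low libraries occurred in both genotypes, and the highest value was 2.56 times the lowest. The means were nearly alike next to this spread, 69.8 ± 23.7 cpm (SD, n = 4) against 65.1 ± 25.0 cpm (SD, n = 5), with a log2 fold change of −0.11 whose 95% interval ran from −0.65 to 0.44 (exact permutation p = 0.778).
Hmgn2 (chromosome 4, 133964738 to 133968650, minus strand), whose protein is the close relative of HMGN1, was barely counted. The counts were 9, 5, 7 and 2 for DJ-1+/+ and 9, 11, 11, 6 and 9 for DJ-1-/- libraries. In DJ-1+/+ replicate 4 it was therefore under the floor of 3 counts. The means of 6.69 ± 3.60 cpm (SD, n = 4) and 9.07 ± 1.90 cpm (SD, n = 5) gave a log2 fold change of 0.44 with a 95% interval from −0.42 to 1.30 (exact permutation p = 0.238). It was the only member with a fitted value above 0, and that value was 0.15 without DJ-1+/+ replicate 4 and 0.75 without DJ-1+/+ replicate 1. Hmgn2 lies 16.9 Mb from Park7 on the same chromosome.
Among the HMGB genes, Hmgb1 (chromosome 5, 149046702 to 149184489, minus strand) had the lowest coefficient of variation of the members, 8.04% over the 9 libraries. Its protein is the abundant nuclear form of the family and the extracellular danger signal. The DJ-1+/+ mice had 107, 119, 98.9 and 113 cpm and the DJ-1-/- mice 94.1, 112, 102, 103 and 118 cpm. No library stood apart in either genotype. The means were 109 ± 8.70 cpm (SD, n = 4) and 106 ± 9.25 cpm (SD, n = 5). The log2 fold change of −0.047 had a 95% interval from −0.25 to 0.16 (exact permutation p = 0.556). Changes within this interval were not excluded.
Hmgb2 (chromosome 8, 57511907 to 57515999, plus strand), known chiefly from dividing cells, had 16, 9, 6 and 8 counts in DJ-1+/+ and 7, 11, 14, 5 and 11 counts in DJ-1-/- libraries. The highest count was that of DJ-1+/+ replicate 1, the library with the most cerebellar marker RNA. The means were 11.3 ± 5.30 cpm (SD, n = 4) and 9.47 ± 3.58 cpm (SD, n = 5), with a log2 fold change of −0.25 (95% interval −1.05 to 0.55, exact permutation p = 0.595). Its sign turned to 0.11 when DJ-1+/+ replicate 1 was left out. Markers of dividing cells (Mki67, Top2a, Ccnb1 and Cdk1) summed to only 5.16 to 12.01 cpm in any library.
Hmgb3 (chromosome X, 71555918 to 71560676, plus strand), best known from blood stem cells and development, had 81.9, 84.1, 102 and 118 cpm in DJ-1+/+ and 83.1, 89.2, 91.8, 73.4 and 97.5 cpm in DJ-1-/- mice. DJ-1+/+ replicate 4 was the highest and DJ-1-/- replicate 4 the lowest. The means were 96.7 ± 17.2 cpm (SD, n = 4) and 87.0 ± 9.20 cpm (SD, n = 5). The log2 fold change was −0.15 (95% interval −0.41 to 0.11, exact permutation p = 0.333), and −0.040 without DJ-1+/+ replicate 4.

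**Figure D2:**
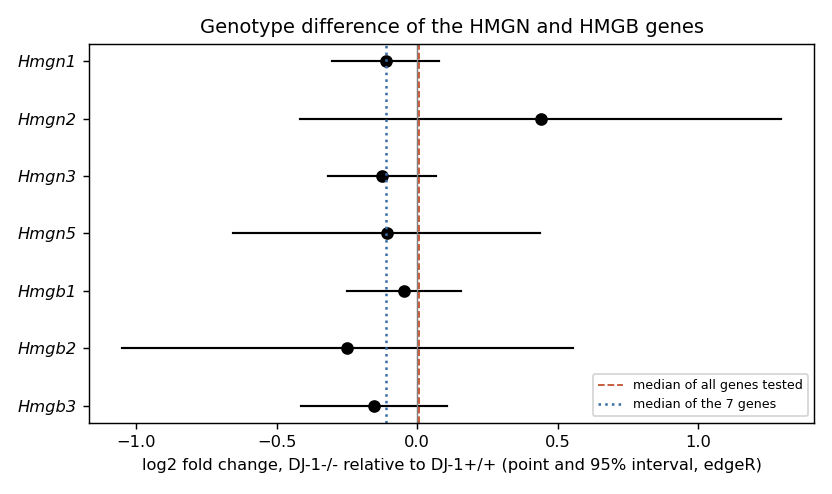
Fitted log2 fold change of each HMGN and HMGB gene in DJ-1-/- relative to DJ-1+/+ mice (horizontal axis), with its 95% interval from edgeR's quasi-likelihood fit, the median of all 18127 genes tested (dashed) and the median of the 7 genes (dotted). All 7 intervals contain 0, and those of Hmgn2 and Hmgb2, the genes with 69 and 87 counts in all, are the widest.

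Fitted values lay below 0 for 6 of the 7 members, as they did for 48.1% of all genes tested. The median over the members was −0.11, against 0.0079 over all genes tested. Without DJ-1+/+ replicate 4 the members' median was −0.040, and without replicates 1 and 4, the DJ-1+/+ libraries with the most choroid plexus and cerebellar marker RNA, it was −0.039. The same libraries were the DJ-1+/+ ones from male mice, by the sex-linked RNA described below. Sex and neighbouring tissue cannot be told apart in this fit. In it, too, 0 of the 7 members reached an unadjusted p under 0.05, with Hmgn1 at −0.10, Hmgn3 at −0.061 and Hmgn5 at −0.021. Summed over the 7 genes, the level was 498 to 621 cpm in the DJ-1+/+ libraries, and 457 to 563 cpm in those of DJ-1-/- mice. The sum was highest in DJ-1+/+ replicate 4 and lowest in DJ-1-/- replicate 1, with overlap between the genotypes.
The make-up of this sum was steady for some members and not for others. Hmgn1 gave 23.4% to 27.4% of the summed counts in every library, Hmgn3 20.3% to 22.1% and Hmgb1 18.2% to 22.5%. The share of Hmgn5 ran from 7.94% in DJ-1+/+ replicate 3 to 18.0% in DJ-1-/- replicate 4. That of Hmgb3 ran from 13.0% in DJ-1-/- replicate 4 to 20.6% in DJ-1+/+ replicate 3, the same pair of libraries in the opposite order.
Hmgn5 was the member that varied most between mice of the same genotype once counting error was taken into account. Its variance within genotypes was 8.49 times that of counting alone, which was more than in 98.1% of the 4351 genes with similar counts. Its coefficient of variation was 34.2% over the 9 libraries, where counting alone would give 12.6%. The corresponding ratio was 1.19 for Hmgn1, 0.83 for Hmgn3, 0.73 for Hmgb1 and 1.69 for Hmgb3. For genes with counts like these the median ratio was itself below that of counting alone, at 0.92 (Hmgn1) to 0.97 (Hmgb3). For Hmgn2 (0.94) and Hmgb2 (1.66), with coefficients of variation of 35.8% and 41.1%, counting alone would give 36.1% and 32.2%. The wide spread of Hmgn2 in cpm was thus no larger than its counting error.

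**Figure D3:**
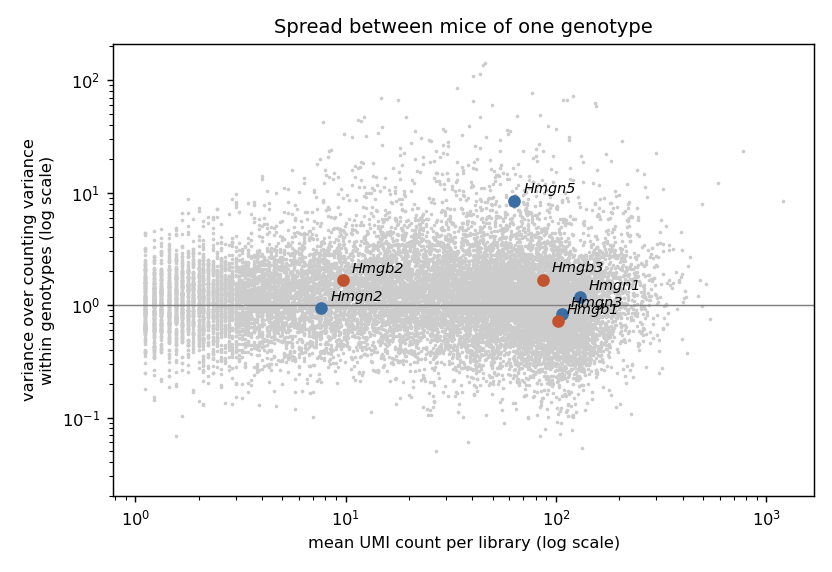
Variance within genotypes divided by the counting variance (vertical axis, log scale) against mean UMI count per library (horizontal axis, log scale) for all genes tested (grey) with the HMGN genes in blue and the HMGB genes in red, and a line at the value of counting alone. Hmgn5, at 8.49, stands well above the other members, which lie between 0.73 and 1.69.

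The sex of the mice did not sort the X-linked members. Xist, expressed from the inactive X chromosome, was present in 6 libraries. It was at or near 0 in the other 3, replicate 5 of DJ-1-/- and replicates 1 and 4 of DJ-1+/+, in which the Y-linked Ddx3y was counted. Hmgn5 ran from 39.6 to 101 cpm in the 6 libraries with Xist and from 63.0 to 84.6 cpm in the 3 without it. Hmgb3 ran from 73.4 to 102 cpm and from 81.9 to 118 cpm. The ranges overlapped for both genes.
Across the 9 libraries Hmgn5 and Hmgn3 were correlated, by Pearson's r and by Spearman's rho. Pearson's r of their log2 cpm was 0.86 (exact permutation p = 0.00358, Benjamini-Hochberg adjusted p = 0.0376 over the 21 pairs of members) and Spearman's rho 0.88 (exact permutation p = 0.00307, adjusted p = 0.0323). Without DJ-1+/+ replicate 4 and DJ-1-/- replicate 1, the libraries farthest from the median of Hmgn3, r was 0.89. After the mean of each genotype was subtracted it was 0.93, and within the 6 libraries with Xist, which leave out DJ-1+/+ replicates 1 and 4, it was 0.92. Hmgn3 itself, like Hmgn2 below, varied no more than counting error over these libraries, so the values are given as a description. Values that share a library also share its total, and with TMM-scaled totals r was 0.86.
Hmgn1 and Hmgn2 were related in the opposite direction, with r of −0.93 (exact permutation p = 0.000237, adjusted p = 0.00498) and rho of −0.95 (exact permutation p = 0.000353, adjusted p = 0.00741). Without DJ-1+/+ replicate 4 and DJ-1-/- replicate 4 r was −0.94, and it was −0.92 within genotypes. This relation rests on 2 to 11 counts of Hmgn2 per library and on a spread that did not exceed counting error in that gene, so these values are likewise a description. Hmgn1 with Hmgn3 (r = 0.82, exact permutation p = 0.00641, adjusted p = 0.0449) and Hmgn2 with Hmgn3 (r = −0.77, exact permutation p = 0.00915, adjusted p = 0.0480) passed by Pearson's r. Neither passed by rho (0.62 and −0.62, adjusted p = 0.310 for each), and r was 0.53 and −0.48 without the libraries farthest from the median (replicates 4 of both genotypes for Hmgn1, DJ-1+/+ replicates 2 and 4 for Hmgn2). After subtraction of genotype means r was 0.78 and −0.70, and within the 6 libraries with Xist it was 0.91 and −0.80, so that the size of these relations depended on which libraries were used. No other pair had an adjusted p under 0.05, and Hmgn5 with Hmgn1, for instance, had an r of 0.67 (exact permutation p = 0.0526, adjusted p = 0.221).

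**Figure D4:**
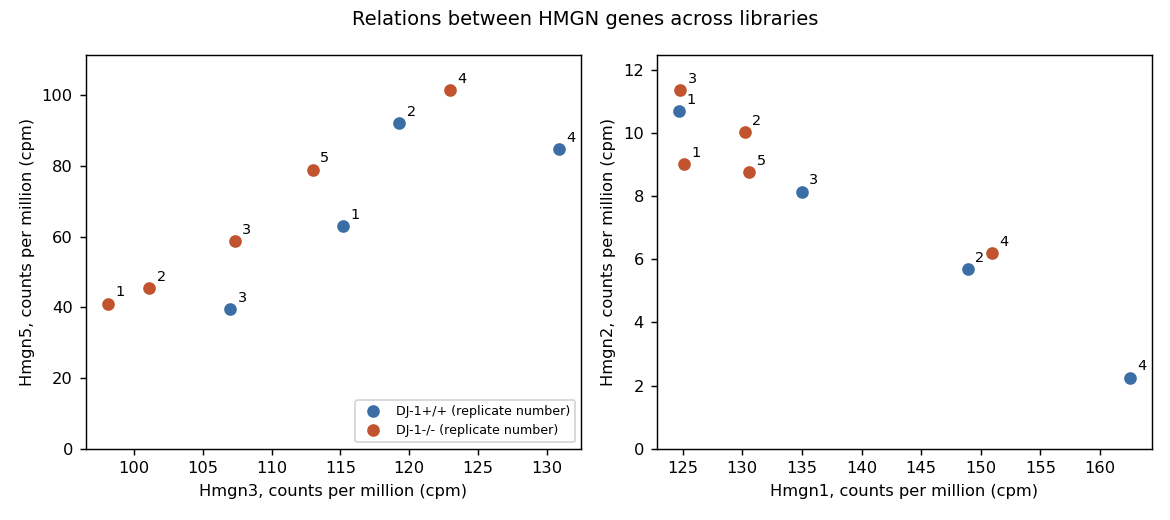
Hmgn5 against Hmgn3 (left) and Hmgn2 against Hmgn1 (right), all axes in cpm, with 1 point per library, DJ-1+/+ in blue and DJ-1-/- in red, labelled by replicate number. Hmgn5 goes up with Hmgn3 (r = 0.86 on the log2 scale) and Hmgn2 goes down with Hmgn1 (r = −0.93, on 2 to 11 counts of Hmgn2), with both genotypes spread along each trend.

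No relation between a member and marker RNA of other cell types passed adjustment across libraries. Those with an unadjusted exact permutation p under 0.05 for r are listed below. The 7 members were set against the summed cpm of 9 marker lists, which makes 63 relations, and the smallest adjusted p was 0.370. Hmgn5 against endothelial markers (Cldn5, Flt1, Pecam1 and Ly6c1) gave r of −0.71 and rho of −0.62 (exact permutation p = 0.0252 for r, adjusted p = 0.397). Hmgb1 against the same markers gave r of −0.76 and rho of −0.85 (exact permutation p = 0.0140 for r, adjusted p = 0.370). Hmgb3 against dopaminergic markers gave r of −0.83 (exact permutation p = 0.00601, adjusted p = 0.370) and −0.48 without DJ-1+/+ replicate 4 and DJ-1-/- replicate 4. Hmgb2 against cerebellar markers gave r of 0.76 (exact permutation p = 0.0176, adjusted p = 0.370) and 0.55 without DJ-1+/+ replicate 1 and DJ-1-/- replicate 4. The part of these cell types in the levels of the members was not tested further.
For each member with a mean of at least 20 cpm, the 2 protein-coding genes with the most similar profile over the 9 libraries were looked up among 10499 genes, by Pearson's r of log2 cpm. With Hmgn5 these were Zfp326, a zinc finger protein of an mRNA splicing complex (r = 0.98), and Tle4, a Groucho corepressor (r = 0.97). Hmgn5 had 22 genes with r above 0.9, against 5 to 8 for the other members so examined. The profile of Hmgn3 was closest to Hspd1, the mitochondrial chaperonin (r = 0.94), and Wdr60, a dynein chain of cilia (r = 0.94). Hmgn1 was closest to Cdipt, which makes phosphatidylinositol (r = 0.96), and Zbtb38, which binds methylated DNA (r = 0.93). For Hmgb1 the closest were Dnmt1, the maintenance DNA methyltransferase (r = 0.95), and Brap (r = 0.91), and for Hmgb3 they were Cdh2, which encodes N-cadherin (r = 0.97), and Vps50 (r = 0.94). These genes are the extremes of many comparisons over 9 libraries and carry no test.
Processed pseudogenes limit what can be said of Hmgb1, since copies of its transcript are scattered over the genome. GENCODE M21 holds 143 annotated pseudogenes with a match to Hmgb1, of which 67 had a count. Together they had 334 counts, against 917 for Hmgb1 itself, or 26.7% of the sum. Of the 143, 133 matched the last 400 bases of any of its protein-coding transcripts, and 31 did so at 95% identity or more. Hmgb1 has 7 annotated protein-coding transcripts, whose ends can differ, and which of them the reads came from is not known here. These are therefore not numbers of copies that shared reads with Hmgb1. The copies with the most counts were Gm5176 on chromosome 10 (46 counts), Gm21596 on chromosome 2 (40 counts) and Gm12568 on chromosome 11 (23 counts). Gm21596 was 99.5% identical to Hmgb1 over 1317 aligned bases. Bases 491 to 550 of the Hmgb1 coding sequence, just before the acidic run, are printed with the same stretch of the 3 pseudogenes, with a base that differs from Hmgb1 in a capital, as an example of bases that the copies share with it. Over their whole matches Gm5176 and Gm12568 were less alike to Hmgb1 than in this window, at 88.5% of 593 and 95.2% of 621 aligned bases.
Hmgb1: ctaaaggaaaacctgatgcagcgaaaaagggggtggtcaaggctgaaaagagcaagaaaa
Gm5176: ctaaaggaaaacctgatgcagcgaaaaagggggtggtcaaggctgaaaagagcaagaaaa
Gm21596: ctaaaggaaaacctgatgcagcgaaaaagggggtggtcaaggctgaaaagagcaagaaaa
Gm12568: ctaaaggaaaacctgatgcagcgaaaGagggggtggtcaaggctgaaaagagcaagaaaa
Gm5176 and Gm21596 differed from Hmgb1 at 0 of these bases and Gm12568 at 1. Reads that lie within bases shared in this way cannot be placed by their sequence, and how reads with several matches were treated is not given in the sources used here. The pseudogene share ran from 22.7% to 27.2% in 8 libraries and was 37.1% in DJ-1-/- replicate 4, where 59 pseudogene counts stood beside 100 counts of Hmgb1. With the pseudogene counts added to Hmgb1 the log2 fold change was −0.0019. Hmgb1 also overlaps 7 annotated genes, 5 of them on the opposite strand, of which Uspl1 had 526 counts.

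**Figure D5:**
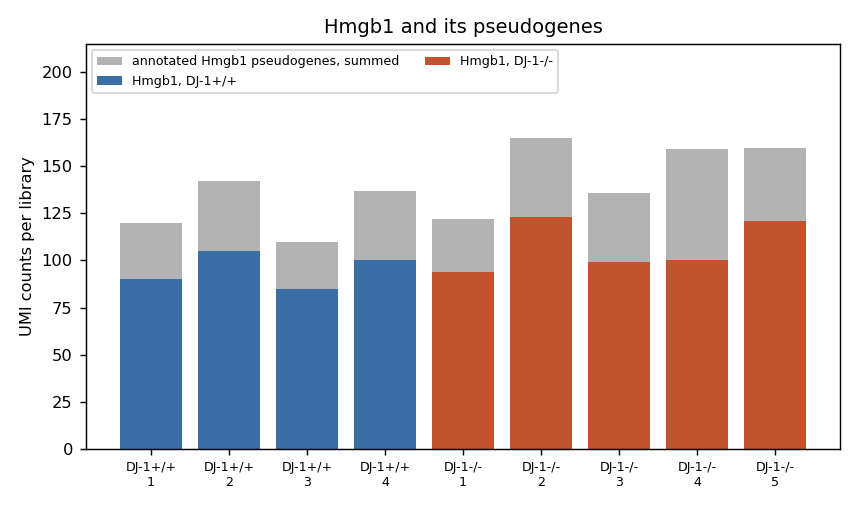
UMI counts per library (vertical axis, from 0) of Hmgb1 in DJ-1+/+ (blue) and DJ-1-/- mice (red), with the summed counts of its annotated pseudogenes stacked in grey, and the replicate number below each bar. Hmgb1 itself has 85 to 123 counts, and the grey part is largest, at 59 counts, in DJ-1-/- replicate 4.

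The other members shared fewer counts with pseudogenes. Hmgn2 had 26 annotated pseudogenes. All 26 matched the last 400 bases of any of its protein-coding transcripts, 10 of them at 95% identity or more. Only 2 counts fell on these pseudogenes, against 69 on Hmgn2. Hmgn2 and its copies thus both had few counts. How many reads matched several of them, and whether such reads were counted, is not known here. The part of lost reads in the low level of Hmgn2 was not tested. Hmgb2 had 12 pseudogenes with 15 counts, 14.7% of the sum, 10 of them on Gm14537. Hmgn5 had 3 with 14 counts, 12 of them on Gm11914, or 2.40% of the sum. Hmgb3 had 18 with 10 counts (1.27%), Hmgn1 10 with 5 counts (0.43%), and Hmgn3 had none.
None of the other HMG genes tested passed the test either, and 0 in so short a list is near the share of all genes. Of 19 other HMG and HMG-box genes 17 were tested, 9 with fitted values above 0 and 8 below. Their median log2 fold change was 0.0060, and 0 had an unadjusted p under 0.05 by edgeR. Over all genes tested 48.1% lay below 0 and 2.83% had such a p. The extremes were Bbx, an HMG-box transcription factor (−0.16), and Hmgxb3 (0.20). Hmga1, the AT-hook member of the group, was low, at 10.4 cpm in DJ-1+/+ mice and 9.44 cpm in DJ-1-/- mice. Ssrp1 and Supt16, the subunits of the histone chaperone FACT, stood at 121 and 135 cpm in wild-type mice and at 122 and 136 cpm in DJ-1-/- mice.
Linker histones, the proteins that HMGN competes with, and histone variants gave a similar picture. Of 20 such genes 17 were tested, with 7 above and 10 below 0 and a median of −0.012. An unadjusted p under 0.05 by edgeR was reached by 0 of them, which again is near the 2.83% of all genes tested. H1f0, the linker histone of resting cells, was 119 cpm in both genotypes. Hist1h1c, another linker histone, had the lowest value of the list (−0.16), and H3f3a, which encodes the replacement histone H3.3, the highest (0.20).
Receptors and partners of extracellular HMGB1 differed widely in level. Of 10 genes 9 were tested, 7 with values above and 2 below 0, where 48.1% of all genes tested lay below. Their median was 0.18, and 0 had an unadjusted p under 0.05 by edgeR, near the 2.83% of all genes tested. Ager, which encodes RAGE, was at about the floor, with means of 2.88 cpm (DJ-1+/+) and 2.78 cpm (DJ-1-/-) and a log2 fold change of −0.056, the lowest of the list (95% interval −1.29 to 1.18). Tlr2 had the highest value, 0.86 with a 95% interval from −0.50 to 2.23, on means of 2.88 and 5.38 cpm. Cxcl12, a chemokine that binds HMGB1, was the best counted, at 104 and 105 cpm, followed by Cd24a at 45.9 and 51.9 cpm, Thbd at 28.2 and 30.1 cpm and Myd88, the adaptor of Toll-like receptors, at 15.6 and 19.5 cpm. Tlr9 had 0 counts in every library. The wide intervals of Ager and Tlr2 did not exclude differences within them.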

How the data were processed

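Midbrain RNA-seq was analysed in 4 DJ-1+/+ and 5 DJ-1-/- mice, grouped by the genotype in the labels. The authors deposited UMI counts per gene, whole numbers by Ensembl identifier without normalization. The submitters' processing notes name fastp 0.20.0, STAR 2.7.3a, Subread featureCounts 2.0.0, UMI-tools 1.0.0 and GRCm38. The annotation release, use of strand and treatment of reads with several matches are not given in the sources used here, so reads of overlapping genes and near-identical copies may be split or lost.
Counts were joined by identifier, an unlisted gene was set to 0, and symbols and positions came from GENCODE M21 (GRCm38, 26576 of 26602 identifiers). Totals of 841974 to 1098125 counts set the precision. Genes with at least 10 counts were tested with edgeR 4.0.16 (TMM, quasi-likelihood, genotype only, Benjamini-Hochberg) in R 4.3.3. Standard errors were taken from the log2 fold change and its p-value. Single values were tested by exact permutation in scipy 1.17.1. Correlations used log2 cpm with 0.5 counts added. Pseudogenes were annotated genes with a BLAST 2.17.0 match of at least 100 bases at 85% identity. Pairs of libraries of a genotype differed beyond sampling noise (chi-square per gene 1.07 to 2.27), and none was a copy. Alternatives were DESeq2 1.42.0, other scalings and filters, Xist as a covariate, a replicate block, thinned counts, added pseudogene counts and left-out libraries. The tests were tried on simulated counts.
The genes named were the 7 members, Park7, Xist and Ddx3y, the pseudogenes with the most counts, the extremes of each list and the genes with the most similar profiles. Others were named after their values were seen. The members and lists were chosen with earlier results of these data known. A marker list of a further cell type is not reported here.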

Additional observations from a re-analysis of the deposited data

Results flagged for a closer look

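The level of Hmgn1 in DJ-1-/- replicate 4 was set off from those of its group. It was 151 cpm there, and the nearest of the other 4 libraries had 131 cpm, a gap that took up 0.778 of the whole range of the group. DJ-1+/+ libraries reached 162 cpm. Without this library the log2 fold change of Hmgn1 was −0.17, with an unadjusted p of 0.0653 in edgeR's test. Without DJ-1+/+ replicate 4, the highest of the other genotype, it was −0.044, with an unadjusted p of 0.645. It was 1 of 36 groups of values examined for such a gap, of which chance alone would single out about 1 in 20, or 1.8.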

How the results depend on the processing

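In all 20 alternatives 0 of the 7 members reached an unadjusted p under 0.05 with edgeR or DESeq2, and the smallest adjusted p was 0.86. Hmgn1, Hmgn3, Hmgb1 and Hmgb3 stayed below 0 and Hmgn2 above 0 in all 20. Hmgn5 ran from −0.33 (without DJ-1-/- replicate 4) to 0.046 (without DJ-1+/+ replicate 2) over the fits that left out 1 library, with 0.015 and 0.0032 without DJ-1-/- replicates 1 and 2. Hmgb2 ran from −0.44 to 0.11 in those fits, and was 0.14 without DJ-1+/+ replicates 1 and 4 and 0.084 in the libraries with Xist. The members' median ran from −0.15 to −0.040 with 1 library left out, and was −0.028 with Xist as a covariate and −0.039 without DJ-1+/+ replicates 1 and 4. The number of all genes with an unadjusted p under 0.05 (513) was 235 with DESeq2, 802 without a filter on low counts and 338 (without DJ-1-/- replicate 2) to 732 (without DJ-1+/+ replicate 2) with 1 library left out. Genes with an adjusted p under 0.05 (1) were 36 without a filter, 8 with the replicate block, 3 in the libraries with Xist and 1 to 2 with 1 library left out. The causes were not tested. Same-numbered mice are not stated to be paired, and their deviations correlated at 0.29, 0.057, −0.12 and −0.20, with 1 of 4 closest to its own number. With the replicate block the members' median was −0.14 and 571 genes had an unadjusted p under 0.05. Depth limits Hmgn2, Hmgb2, Ager and the Toll-like receptor genes, whose counts lie near the floor of 3.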
